A study of Mus musculus with 12 samples.

Results

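MHC class I molecules show peptides from inside the cell at its surface, and the genes described here make, carry and load those peptides. The 10 listed genes were Tap1, Tap2, Tapbp, B2m, Psmb8, Psmb9, Psmb10, Psme1, Psme2 and Erap1. They were chosen by name, with earlier results of these data known, through probe sets whose only gene symbol in the probe annotation was one of these. For 9 of the 10 such a probe set existed, among 12393 genes measured that way. The probe set of Psme2 also names Psme2b, and Psme2 was therefore left out of every count. Where a gene had several probe sets, the one with the highest mean over the 12 arrays stood for it.

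The data came from Affymetrix arrays of mouse bone marrow-derived macrophages of strain 129-SvEv-Tac, 1 array per sample. Marrow cells of 2 genotypes were grown for 5 days in medium with L-cell supernatant, a source of macrophage growth factor, and replated before treatment. p50-/-IL10-/- cells lack IL-10, which dampens inflammatory output of macrophages, and also the p50 subunit of the transcription factor NF-kB, which the series title gives as p50/p105. IL10-/- cells lack IL-10 alone, so no group made its own IL-10 and both genotypes share that deletion. Cells of each genotype received LPS (1 ng/ml) together with added IL-10 (0.3 ng/ml), the same LPS dose alone, or no stimulus, and RNA was taken after 4 h. LPS is a component of bacterial walls. Each of the 6 groups held 2 arrays, called biological replicates in the labels. The transcripts of the targeted genes were not analysed here, and the genotypes rest on the labels.

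The proteasome cuts cytosolic proteins into peptides. In immune cells 3 of its catalytic subunits can be replaced by Psmb8, Psmb9 and Psmb10, which form the immunoproteasome, and Psme1 with Psme2 makes the PA28 cap that opens the core. Tap1 and Tap2 form the transporter that moves peptides into the endoplasmic reticulum, where Erap1 trims them, Tapbp (tapasin) holds the transporter next to the class I molecule, and B2m is the light chain of that molecule. In macrophages these genes are textbook targets of interferons, acting through STAT factors and interferon regulatory factors, and several also respond to NF-kB.

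The start regions of these genes are shown because such factors bind there. RefSeq sequence of build GRCm38.p6, from 250 bases before to 50 after the start, was at hand for 9 of the 10 listed genes, all but Tap2. Tap1, Tapbp, Psmb8 and Psmb9 lie together on chromosome 17, and Tap1 and Psmb9 run apart from each other with start sites 226 bases apart, so that their windows share 275 bases. The window of Tap1, chr17:34187306-34187605 on the plus strand, is printed with the core letters of NF-kB sites, GGG and then CC with any 5 bases between them, in capitals wherever they occur on either strand. Where 2 matches overlap, the capitals run on.
Tap1: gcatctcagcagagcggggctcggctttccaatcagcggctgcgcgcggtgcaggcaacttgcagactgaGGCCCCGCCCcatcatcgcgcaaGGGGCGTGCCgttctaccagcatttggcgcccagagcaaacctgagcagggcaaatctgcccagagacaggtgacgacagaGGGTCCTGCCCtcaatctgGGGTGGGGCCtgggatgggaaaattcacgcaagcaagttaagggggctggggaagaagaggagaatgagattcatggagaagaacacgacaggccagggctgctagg
These letters are common, found on either strand in 50.79% of 32851 windows of the same length. Among the listed genes they occurred in the windows of Tap1, Psmb9, B2m, Psme1 and Psme2. Those of Tap1 and Psmb9 are the same matches, which lie in the shared bases and are read there from opposite strands. A core of the interferon-stimulated response element, GAAA and again GAAA with any 2 bases between them, is rarer, at 3.44% of the windows. It occurred in B2m, Psme1 and Erap1, shown here as 50-base stretches of the plus strand with the match in capitals, at chr2:122147528-122147577, chr14:55578483-55578532 and chr13:74639829-74639878.
B2m: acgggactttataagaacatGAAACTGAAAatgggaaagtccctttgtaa
Psme1: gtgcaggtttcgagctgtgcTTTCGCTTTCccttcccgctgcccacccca
Erap1: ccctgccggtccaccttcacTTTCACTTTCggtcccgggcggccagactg
In Psme1 and Erap1 the match is on the other strand, so the capitals show its reverse complement. A match of letters describes the sequence and does not show binding.

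Values are log2 expression as made by RMA, so a difference of 1 means a doubling. On these arrays B2m was near the top of the scale, at 13.26 to 13.68 log2 over the 12 arrays, above at least 99.7% of genes on each. Tapbp, Psme1, Psmb8 and Psmb10 followed between 10.19 and 12.66 log2, and Psmb9, Tap1, Tap2 and Erap1 covered 7.39 to 11.27 log2. Levels of different probe sets do not rank the transcripts, because each set of probes binds with its own strength.

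Pearson's r between the pair of arrays of each group was 0.992 to 0.997. For the 9 genes, however, the IL10-/- arrays numbered 2 read lower than those numbered 1 at every stimulus, in 9 of 9 genes each time. Their median gap was 0.36 log2 with LPS+IL-10, 0.35 with LPS and 0.58 without stimulus, against all-gene gaps of 0.007, -0.007 and -0.015 log2. In p50-/-IL10-/- cells the median gaps of the 9 genes were -0.11, 0.23 and 0.06 log2 in the same order of stimuli. Main results that rest on the IL10-/- arrays are therefore also given without the 3 arrays numbered 2, a choice made after the arrays were seen. Each IL10-/- group then holds 1 array, so the spread in those fits comes from the p50-/-IL10-/- arrays alone. The SE, p and calls of those fits do not measure the spread of IL10-/- cells. Over all genes the same-numbered IL10-/- arrays deviated together between stimuli, with correlations of 0.398 to 0.595 over the 3 pairs of groups, while those of p50-/-IL10-/- cells did not, at -0.492 to 0.28. For comparisons within IL10-/- cells, a fit with the replicate number as a block within each genotype is therefore given beside a result whose call it changes.

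Some marker genes of macrophages and of other cells differed between the genotypes. The mean of 8 macrophage markers lay at 11.87 to 12.16 log2 on p50-/-IL10-/- arrays and at 11.76 to 12.12 on IL10-/- arrays. Single macrophage markers differed in both directions, by -1.05 to 1.62 log2 with LPS+IL-10, where 1 was called higher (7.58% of all genes) and 2 lower (10.4%). With LPS 2 were called higher (5.66%) and 1 lower (6.72%), and 0 were called unstimulated. The mean of 6 neutrophil markers was 8.03 to 8.21 against 8.67 to 8.89 log2, with 4 of 6 called lower with LPS+IL-10 (10.4% of all genes), 6 with LPS (6.72%) and 5 unstimulated (1.31%). Of 6 dendritic cell markers 3 were called higher with LPS+IL-10 (7.58% of all genes), 1 with LPS (5.66%) and 1 unstimulated (1.26%). Their mean was 6.45 to 6.67 against 5.98 to 6.18 log2. That gap came mainly from Itgax, an integrin that macrophages also carry, at 10.31 to 10.96 against 7.49 to 8.40 log2, as the median difference of the 6 was 0.13, 0.02 and 0.015 with LPS+IL-10, LPS and no stimulus, and Zbtb46, Ccr7 and Dpp4 averaged under 5.60 log2, the upper end of the arrays' lower quartiles. The mean of 5 stromal markers was 5.86 to 6.21 on p50-/-IL10-/- arrays and 6.38 to 7.05 log2 on IL10-/- arrays. Of the 5, 1 was called lower with LPS+IL-10 (10.4% of all genes), 2 lower (6.72%) and 1 higher (5.66%) with LPS, and 1 lower unstimulated (1.31%). Means of B cell markers (5.78 to 6.17 against 5.91 to 6.10 log2) and of T and NK cell markers (5.40 to 5.57 against 5.43 to 5.53) overlapped. The part of these differences in the genotype results below was not tested, and in such bulk samples fewer cells of a type and less RNA per cell cannot be told apart.

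**Figure D1:**
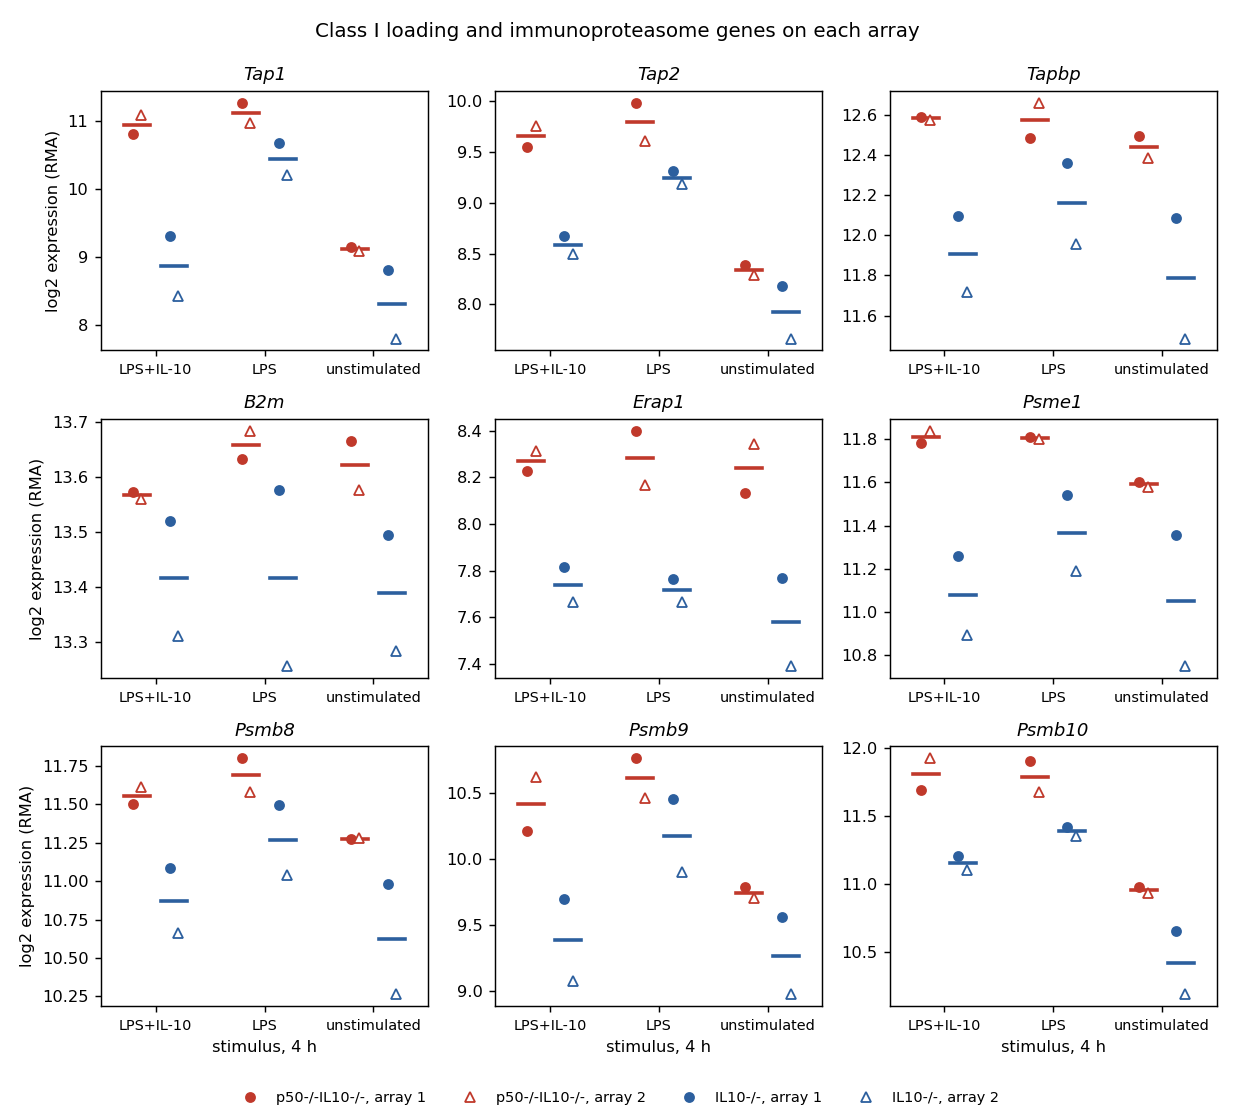
Log2 expression (RMA) of the 9 genes on each of the 12 arrays, by stimulus, with p50-/-IL10-/- in red left of IL10-/- in blue. Filled circles are arrays numbered 1, open triangles arrays numbered 2, and bars the mean of the 2 arrays. In each panel the red points lie above the blue points of the same stimulus, and Tap1 with LPS+IL-10 shows the widest gap, 10.80 and 11.08 against 9.30 and 8.41 log2.

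LPS raised the transporter genes and 2 immunoproteasome subunits in both genotypes, and little else of the group passed the test. Tap1, Tap2, Psmb9 and Psmb10 were called higher with LPS in p50-/-IL10-/- cells and likewise in IL10-/- cells, 4 of 9 genes each time. The threshold throughout was a limma p, adjusted by Benjamini-Hochberg over 12393 genes, below 0.05, and the p-values measure only the spread between these arrays, since separate cultures or animals are not given in the sources used here. Of all genes, 10.3% were called higher in p50-/-IL10-/- cells and 7.76% in IL10-/- cells. On both arrays with LPS 6 of 9 genes read above both unstimulated arrays in p50-/-IL10-/- cells (28.3% of all genes) and 5 of 9 in IL10-/- cells (24.4%). The median difference of the 9 genes was 0.42 log2 in p50-/-IL10-/- cells and 0.65 log2 in IL10-/- cells, while that of all genes was -0.01 in both.

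Tap1, the first chain of the transporter, read 11.27 and 10.97 log2 with LPS and 9.15 and 9.09 unstimulated in p50-/-IL10-/- cells. It read, in IL10-/- cells, 10.68 and 10.20 with LPS, against 8.80 and 7.79 unstimulated. Every array with LPS lay above every unstimulated array, of its own genotype and of the other. The difference was 2.00 ± 0.33 log2 (± SE, limma adjusted p 0.000883) in p50-/-IL10-/- cells, a fold of 4.0, and 2.14 ± 0.33 (adjusted p 0.000823), a fold of 4.41, in IL10-/- cells. Without the 3 IL10-/- arrays numbered 2 it was 1.88 in IL10-/- cells.

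Tap1 has 3 dimmer probe sets besides. The brightest of these, at 5.55 to 6.84 log2, differed with LPS by 0.88 ± 0.24 in p50-/-IL10-/- cells (limma adjusted p 0.0168, probe sets tested separately) and by 0.68 ± 0.24 in IL10-/- cells (adjusted p 0.0653). With added IL-10 it differed by -0.28 ± 0.24 in p50-/-IL10-/- cells and -0.23 ± 0.24 in IL10-/- cells, neither called. With the mean of all 4 probe sets as the value of Tap1, the LPS response was 0.78 (adjusted p 0.00179) in p50-/-IL10-/- cells and 0.73 (0.00384) in IL10-/- cells. On that scale the IL-10 effect in IL10-/- cells was -0.49 and was no longer called (0.0762). The LPS+IL-10 response of p50-/-IL10-/- cells was then 0.66 (0.00531) and the genotype difference with LPS+IL-10 was 0.67 (0.0103). The sizes given for Tap1 below are those of its brightest probe set.

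Tap2, the other chain, read 9.98 and 9.61 log2 with LPS and 8.38 and 8.29 unstimulated in p50-/-IL10-/- cells, and 9.31 and 9.19 with LPS against 8.18 and 7.66 unstimulated in IL10-/- cells. Here too the arrays with LPS lay above all unstimulated ones. The rise was 1.46 ± 0.17 log2 (2.75-fold, limma adjusted p 7.43e-05) in p50-/-IL10-/- cells and 1.32 ± 0.17 (2.5-fold, adjusted p 0.000232) in IL10-/- cells. In the latter it was 1.13 without the 3 arrays numbered 2.

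Among the immunoproteasome subunits, Psmb10 (MECL-1) had the firmest response. It read 11.91 and 11.68 log2 with LPS and 10.97 and 10.93 unstimulated in p50-/-IL10-/- cells, a rise of 0.84 ± 0.14 (limma adjusted p 0.00104). Its IL10-/- values were 11.42 and 11.36 with LPS against 10.65 and 10.19 unstimulated, a rise of 0.97 ± 0.14 (adjusted p 0.000591), or 0.77 without the 3 arrays numbered 2. The calls of Psmb10, Tap1 and Tap2 were kept in all 4 fits of each genotype that left out 1 of its arrays.

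Psmb9 (LMP2) read 10.76 and 10.46 log2 with LPS and 9.79 and 9.70 unstimulated in p50-/-IL10-/- cells, and 10.45 and 9.90 with LPS against 9.56 and 8.98 unstimulated in IL10-/- cells. Arrays with LPS lay above the unstimulated ones in each genotype. The rises of 0.87 ± 0.26 (limma adjusted p 0.024) and 0.91 ± 0.26 (adjusted p 0.0244) were close to the threshold. In p50-/-IL10-/- cells the call ended without unstimulated array 1 (0.91, adjusted p 0.0775), unstimulated array 2 (0.82, adjusted p 0.116) or LPS array 1 (0.71, adjusted p 0.151). In IL10-/- cells the call ended without unstimulated array 2 (0.62) or LPS array 1 (0.64), and without the 3 arrays numbered 2 the rise was 0.89.

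Psmb8 (LMP7) read 11.80 and 11.58 log2 with LPS and 11.27 and 11.28 unstimulated in p50-/-IL10-/- cells, a difference of 0.42 ± 0.22 (limma adjusted p 0.197). Its IL10-/- values were 11.49 and 11.04 with LPS against 10.98 and 10.26 unstimulated, a difference of 0.65 ± 0.22 (adjusted p 0.0591). The arrays of the 2 conditions did not overlap in either genotype, yet neither difference was called. The IL10-/- difference was 0.51 without the 3 arrays numbered 2, 1.00 without unstimulated array 1 and 0.87 without LPS array 2. Whether it passed the test depended on the arrays kept.

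The remaining 4 genes, Tapbp, B2m, Psme1 and Erap1, did not pass the test with LPS in either genotype. Psme1, the alpha chain of PA28, read 11.81 and 11.80 with LPS and 11.60 and 11.58 log2 unstimulated in p50-/-IL10-/- cells, a difference of 0.21 ± 0.19 with a 95% interval of -0.20 to 0.62. Its difference in IL10-/- cells was 0.31 (-0.10 to 0.72), that of Tapbp was 0.37 (-0.06 to 0.81), and without unstimulated array 1 both were called, at 0.62 and 0.67 (limma adjusted p 0.0281 and 0.0323). B2m differed by 0.04 log2 (-0.22 to 0.30) in p50-/-IL10-/- cells and by 0.03 (-0.23 to 0.29) in IL10-/- cells. B2m, Tapbp and Erap1 overlapped between LPS and no stimulus in both genotypes, and Psme1 in IL10-/- cells. With a replicate block within genotypes 7 of 9 genes were called higher with LPS in IL10-/- cells, Psmb8 (limma adjusted p 0.00123), Psme1 (0.0254) and Tapbp (0.0159) being the additions. Over all genes that block called 1057 higher there, against 962 without it.

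The LPS response itself was compared between the genotypes by an interaction term. For none of the 9 genes was it called (0 of 9, limma, against 1.19% of all genes in either direction). None had an unadjusted p under 0.05, where 10.0% of all genes did. The differences between the responses, p50-/-IL10-/- minus IL10-/-, lay between -0.24 log2 for Tapbp and 0.14 for Tap2. Without the 3 IL10-/- arrays numbered 2 they lay between -0.14 and 0.34, and Tap1 turned from -0.14 to 0.12. Their 95% intervals over all arrays reached from -1.18 to 0.90, both bounds being those of Tap1.

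**Figure D2:**
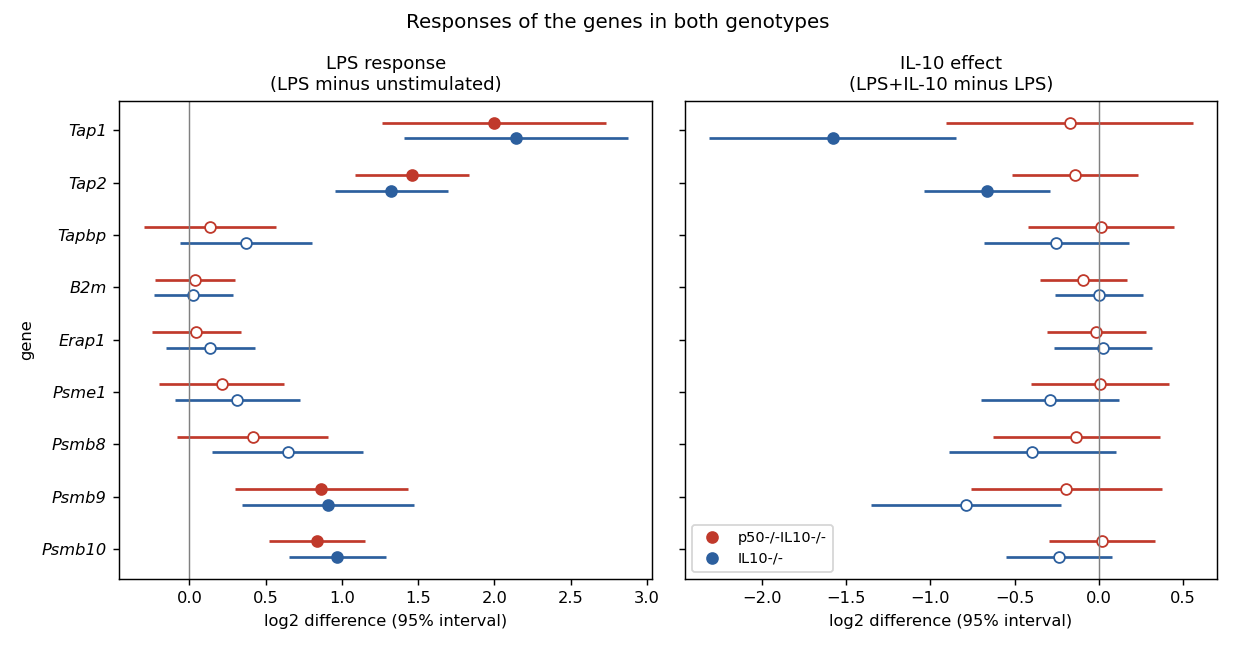
Log2 differences of the 9 genes with 95% intervals from limma, for LPS minus unstimulated (left) and LPS+IL-10 minus LPS (right), p50-/-IL10-/- in red above IL10-/- in blue. Filled points were called at an adjusted p under 0.05. With LPS the same 4 genes are filled in both genotypes, while for added IL-10 only Tap1 (-1.58) and Tap2 (-0.66) in IL10-/- cells are.

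Added IL-10 lowered the transporter genes in IL10-/- cells, and no gene of the group was called in p50-/-IL10-/- cells. Among IL10-/- cells 2 of 9 genes were called lower with LPS+IL-10 than with LPS, against 2.82% of all genes. In p50-/-IL10-/- cells 0 of 9 were called in limma, against 6.57% of all genes in either direction. By unadjusted p, 0 of 9 were under 0.05 in those cells, against 23.4% of all genes. There B2m alone lay lower on both LPS+IL-10 arrays than on both LPS arrays (1 of 9, against 19.2% of all genes). These differences share the LPS arrays of their own genotype with the LPS responses, where those arrays are the ones compared with no stimulus.

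Tap1 read 9.30 and 8.41 log2 with LPS+IL-10 in IL10-/- cells, against 10.68 and 10.20 with LPS, and it fell by 1.58 ± 0.33 log2 (2.99-fold, limma adjusted p 0.0175). Its p50-/-IL10-/- values were 10.80 and 11.08 with LPS+IL-10 and 11.27 and 10.97 with LPS, a difference of -0.17 ± 0.33 (95% interval -0.91 to 0.56). The arrays thus were apart in IL10-/- cells and overlapped in p50-/-IL10-/- cells. The call in IL10-/- cells ended without LPS array 1 (-1.34, adjusted p 0.129) or LPS+IL-10 array 2 (-1.14, adjusted p 0.141). Without the 3 arrays numbered 2 the difference was -1.38.

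Tap2 read 8.67 and 8.50 log2 with LPS+IL-10 against 9.31 and 9.19 with LPS in IL10-/- cells, and it fell by 0.66 ± 0.17 (limma adjusted p 0.0432). Its p50-/-IL10-/- values were 9.55 and 9.76 with LPS+IL-10 and 9.98 and 9.61 with LPS, a difference of -0.14 ± 0.17. The call in IL10-/- cells ended with any 1 of its 4 arrays left out. Leaving out LPS array 1 gave -0.60 (adjusted p 0.207) and leaving out LPS array 2 gave -0.72 (0.0646). The same step for the LPS+IL-10 pair gave -0.75 (array 1, 0.0998) and -0.58 (array 2, 0.242). It also ended without the 3 arrays numbered 2, at -0.64 ± 0.18 (adjusted p 0.103).

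Psmb9 and Psmb10 also lay lower on both LPS+IL-10 arrays than on both LPS arrays in IL10-/- cells, which with Tap1 and Tap2 makes 4 of 9 genes, against 17.2% of all genes. Psmb9 read 9.70 and 9.08 log2 with LPS+IL-10 and 10.45 and 9.90 with LPS, a difference of -0.79 ± 0.26 that was not called (limma adjusted p 0.119), but was called with a replicate block within genotypes (adjusted p 0.00592). Psmb10 read 11.20 and 11.10 against 11.42 and 11.36, a difference of -0.24 ± 0.14. In p50-/-IL10-/- cells these subunits differed by -0.19 ± 0.26 (Psmb9) and 0.02 ± 0.14 (Psmb10), with overlapping arrays. Over the 9 genes the differences ran from -0.19 to 0.02 log2 in p50-/-IL10-/- cells and from -1.58 to 0.02 in IL10-/- cells, with medians of -0.09 and -0.29 beside 0.05 and 0.01 over all genes.

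The difference between these IL-10 effects was tested directly and was called for 0 of 9 genes in limma, against 0.137% of all genes in either direction. By unadjusted p, 11.7% of all genes were under 0.05, and of the 9 genes 1 was, Tap1. Its IL-10 effect differed by 1.41 ± 0.47 log2 between p50-/-IL10-/- and IL10-/- cells, with a 95% interval of 0.37 to 2.45 and an adjusted p of 0.316. Without the 3 IL10-/- arrays numbered 2 the value was 1.20. With a replicate block within genotypes Tap1 was called (1.41 ± 0.21, adjusted p 0.019). That block also pairs the p50-/-IL10-/- arrays by number, although those did not deviate together. With the mean of its 4 probe sets the value was 0.37 ± 0.20 (adjusted p 0.473), and the next brightest probe set alone gave -0.06 ± 0.33. For Psmb9 the difference was 0.60 ± 0.36 (-0.21 to 1.40) and for Tap2 0.52 ± 0.24 (-0.01 to 1.05). Although the IL-10 effect on Tap1 and Tap2 was called in IL10-/- cells alone, no difference between the genotypes in that effect passed the threshold without the block.

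Set against unstimulated cells, LPS+IL-10 raised 3 of 9 genes in p50-/-IL10-/- cells and 2 of 9 in IL10-/- cells, where 16.7% and 6.94% of all genes were called higher. In p50-/-IL10-/- cells Tap1 was higher by 1.83 ± 0.33 log2, Tap2 by 1.32 ± 0.17 and Psmb10 by 0.86 ± 0.14 (limma adjusted p 0.00178, 0.00018 and 0.00104), each call kept in all 4 fits without 1 array. In IL10-/- cells Psmb10 was higher by 0.73 ± 0.14 (adjusted p 0.00432) and Tap2 by 0.66 ± 0.17 (adjusted p 0.0184), while Tap1 differed by 0.56 ± 0.33 (adjusted p 0.306) with overlapping arrays and was called with a replicate block within genotypes (adjusted p 0.0218). The call of Tap2 in IL10-/- cells ended without unstimulated array 2 (0.40, adjusted p 0.162) or LPS+IL-10 array 1 (0.57, adjusted p 0.128). Without the 3 arrays numbered 2 neither was called there, Psmb10 at 0.55 (adjusted p 0.0538) and Tap2 at 0.49 (adjusted p 0.135).

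Between the genotypes, all 9 genes read higher in p50-/-IL10-/- cells at every stimulus, and most of them passed the test with LPS+IL-10. With LPS+IL-10 7 of 9 genes were called higher in p50-/-IL10-/- cells, all but Psmb8 and B2m, against 7.58% of all genes. With LPS alone 1 of 9 was called (5.66% of all genes) and without stimulus 1 of 9 (1.26%), in both cases Erap1. Each of the 9 genes read higher on both p50-/-IL10-/- arrays than on both IL10-/- arrays at each stimulus, which held for 35.4% of all genes with LPS+IL-10, 21.6% with LPS and 21.3% without stimulus. Median differences of the 9 genes were 0.68, 0.43 and 0.54 log2 in that order, beside 0.04, -0.02 and -0.01 over all genes. Without the 3 IL10-/- arrays numbered 2 the medians of the 9 genes were 0.55, 0.26 and 0.29 log2, and Tap1 differed by 1.64, 0.44 and 0.32. At an unadjusted p under 0.05 the counts were 8, 4 and 7 of 9, where 32.8%, 25.1% and 13.8% of all genes passed.

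The transporter genes differed most with LPS+IL-10. Tap1 averaged 10.94 log2 in p50-/-IL10-/- cells and 8.86 in IL10-/- cells, a difference of 2.09 ± 0.33 (4.25-fold, limma adjusted p 0.00221, n = 2 arrays each). Tap2 averaged 9.65 against 8.58, a difference of 1.07 ± 0.17 (2.1-fold, adjusted p 0.00208). These calls were kept in all 4 fits without 1 array, and Tap1 differed by 1.64 without the 3 IL10-/- arrays numbered 2. With LPS alone Tap1 differed by 0.68 ± 0.33 (adjusted p 0.242) and Tap2 by 0.55 ± 0.17 (adjusted p 0.0598), and Tap2 was called at 0.74 (adjusted p 0.0448) without LPS array 2 of p50-/-IL10-/- cells. Unstimulated, they differed by 0.82 ± 0.33 and 0.41 ± 0.17 (adjusted p 0.291 and 0.297).

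Of the proteasome genes with LPS+IL-10, Psmb9 read 10.21 and 10.62 log2 in p50-/-IL10-/- cells and 9.70 and 9.08 in IL10-/- cells, higher by 1.03 ± 0.26 (limma adjusted p 0.0201). Psmb10 read 11.69 and 11.93 against 11.20 and 11.10, higher by 0.66 ± 0.14 (adjusted p 0.0107), and Psme1 read 11.78 and 11.84 against 11.26 and 10.89, higher by 0.73 ± 0.19 (adjusted p 0.0213). Psmb8 read 11.50 and 11.61 against 11.09 and 10.66, and its difference of 0.68 ± 0.22 missed the threshold (adjusted p 0.059). Psmb8 and Psmb10 differed by like amounts, but Psmb8 varied more between the arrays of IL10-/- cells.

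Tapbp, which bridges transporter and class I molecule, read 12.59 and 12.57 log2 in p50-/-IL10-/- cells with LPS+IL-10 and 12.10 and 11.72 in IL10-/- cells, higher by 0.68 ± 0.20 (limma adjusted p 0.0373). B2m read 13.57 and 13.56 against 13.52 and 13.31, a difference of 0.15 ± 0.12 (95% interval -0.11 to 0.41). The second probe set of Tapbp, which is dimmer at 8.18 to 11.22 log2, differed by 0.85 ± 0.43 and was not called (adjusted p 0.216).

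Several of these calls ended when 1 array was left out, which also leaves the test with less data. Without LPS+IL-10 array 2 of IL10-/- cells, Psmb9 stood at 0.72 (limma adjusted p 0.161), Psmb10 at 0.61 (0.0778), Psme1 at 0.55 (0.162), Tapbp at 0.48 (0.247) and Erap1 at 0.46 (0.137). Without LPS+IL-10 array 2 of p50-/-IL10-/- cells they stood at 0.83 (0.137), 0.54 (0.0883), 0.71 (0.104), 0.68 (0.132) and 0.49 (0.112) in the same order. Without array 1 of that group, Psme1 (0.76, adjusted p 0.0809), Tapbp (0.67, 0.137) and Erap1 (0.57, 0.0691) were not called. With any of these arrays left out the group has 1 array, which is assumed to vary like the others. Without either p50-/-IL10-/- array the sizes of Psme1 and Tapbp stayed near the 0.73 and 0.68 of all arrays, though their calls ended. With all 3 IL10-/- arrays numbered 2 left out, the differences were 0.72 for Psmb9, 0.47 for Psmb8 and 0.46 for Erap1. Whether Psmb8 and Erap1 passed the test depended on these arrays.

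Erap1, the peptide trimming enzyme, had a genotype difference of like size at all 3 stimuli. It read 8.23 and 8.31 log2 with LPS+IL-10, 8.40 and 8.17 with LPS, and 8.14 and 8.34 unstimulated in p50-/-IL10-/- cells. In IL10-/- cells it read 7.81 and 7.67, 7.77 and 7.67, and 7.77 and 7.39 in the same order of stimuli. All 6 arrays of the first genotype lay above all 6 of the second. The differences were 0.53 ± 0.13 with LPS+IL-10 (limma adjusted p 0.0206), 0.57 ± 0.13 with LPS (0.0186) and 0.66 ± 0.13 without stimulus (0.0258), while neither LPS nor IL-10 moved it past the test in either genotype.

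These Erap1 calls were not firm. Without the 3 IL10-/- arrays numbered 2 they ended, at 0.46, 0.52 and 0.47 log2 (limma adjusted p 0.0646, 0.0529 and 0.171). With LPS alone the call ended without array 2 of IL10-/- cells (0.52, adjusted p 0.0952) or array 1 of p50-/-IL10-/- cells (0.45, adjusted p 0.147). Without stimulus it ended without array 2 of IL10-/- cells (0.47, adjusted p 0.214), array 1 of p50-/-IL10-/- cells (0.77, 0.0634) or array 2 of those cells (0.56, 0.226).

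In unstimulated cells the other genes differed by 0.23 log2 (B2m) to 0.82 log2 (Tap1), none called. Leaving out unstimulated array 1 of IL10-/- cells brought 4 more calls, with Psmb8 at 1.01, Tapbp at 0.95, Psme1 at 0.84 and Psmb10 at 0.77 (limma adjusted p 0.0391, 0.0346, 0.0352 and 0.0207). Leaving out its array 2 ended every call, and Tap1 then differed by 0.32 log2. With LPS, B2m was called at 0.40 (adjusted p 0.0472) without LPS array 1 of IL10-/- cells.

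**Figure D3:**
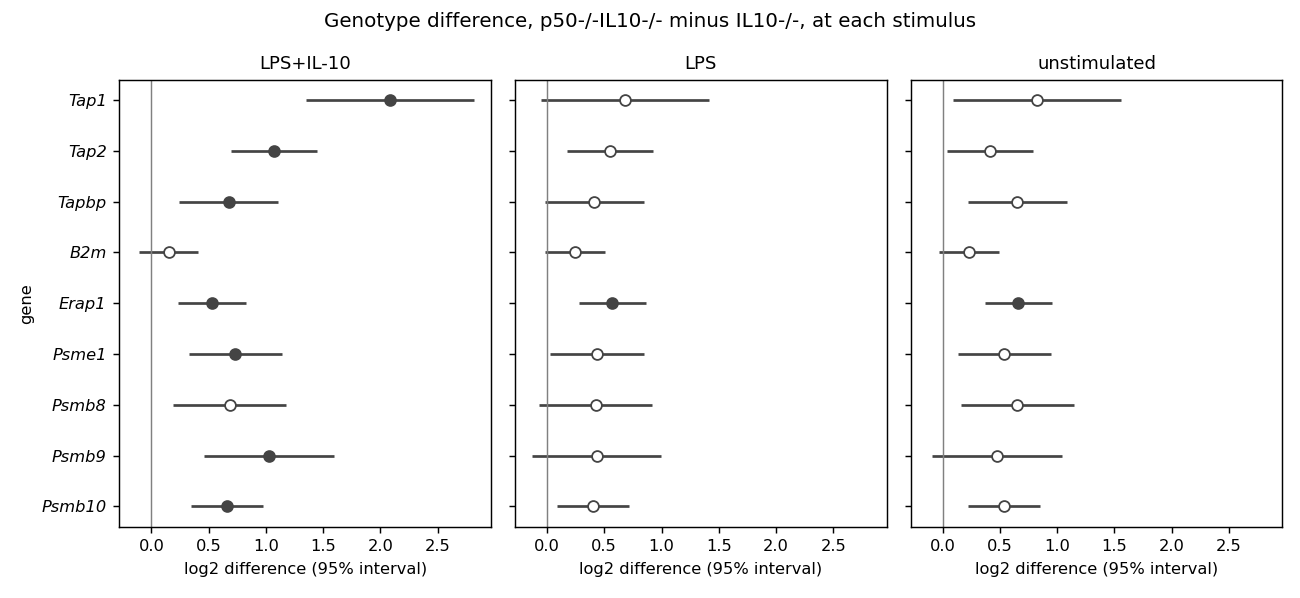
Log2 difference of each gene between the genotypes, p50-/-IL10-/- minus IL10-/-, with its 95% interval from limma, at LPS+IL-10, LPS and no stimulus from left to right. Filled points were called at an adjusted p under 0.05. All points lie above 0, from 0.15 to 2.09 with LPS+IL-10, where 7 of 9 are filled, and only Erap1 is filled in the other panels.

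Within the core of the proteasome, the immune subunits can be set beside the constitutive ones they replace. Psmb8 takes the place of Psmb5, Psmb9 that of Psmb6 and Psmb10 that of Psmb7. Over the 12 arrays Psmb5 spanned 0.36 log2, Psmb6 0.36 and Psmb7 0.25, whereas Psmb8 spanned 1.54, Psmb9 1.78 and Psmb10 1.74. Psmb5 fell with LPS in p50-/-IL10-/- cells, by 0.25 ± 0.08 (limma adjusted p 0.0328), and only 1 of the 4 fits that left out an array kept this, with the highest adjusted p, 0.25, without unstimulated array 2. The difference of Psmb5 in IL10-/- cells was -0.03 ± 0.08. Psmb6 differed with LPS by 0.05 ± 0.09 and 0.27 ± 0.09 (p50-/-IL10-/- and IL10-/- cells) and Psmb7 by 0.05 ± 0.09 and 0.08 ± 0.09, none called. None of the 3 was called between the genotypes at any stimulus.

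**Figure D4:**
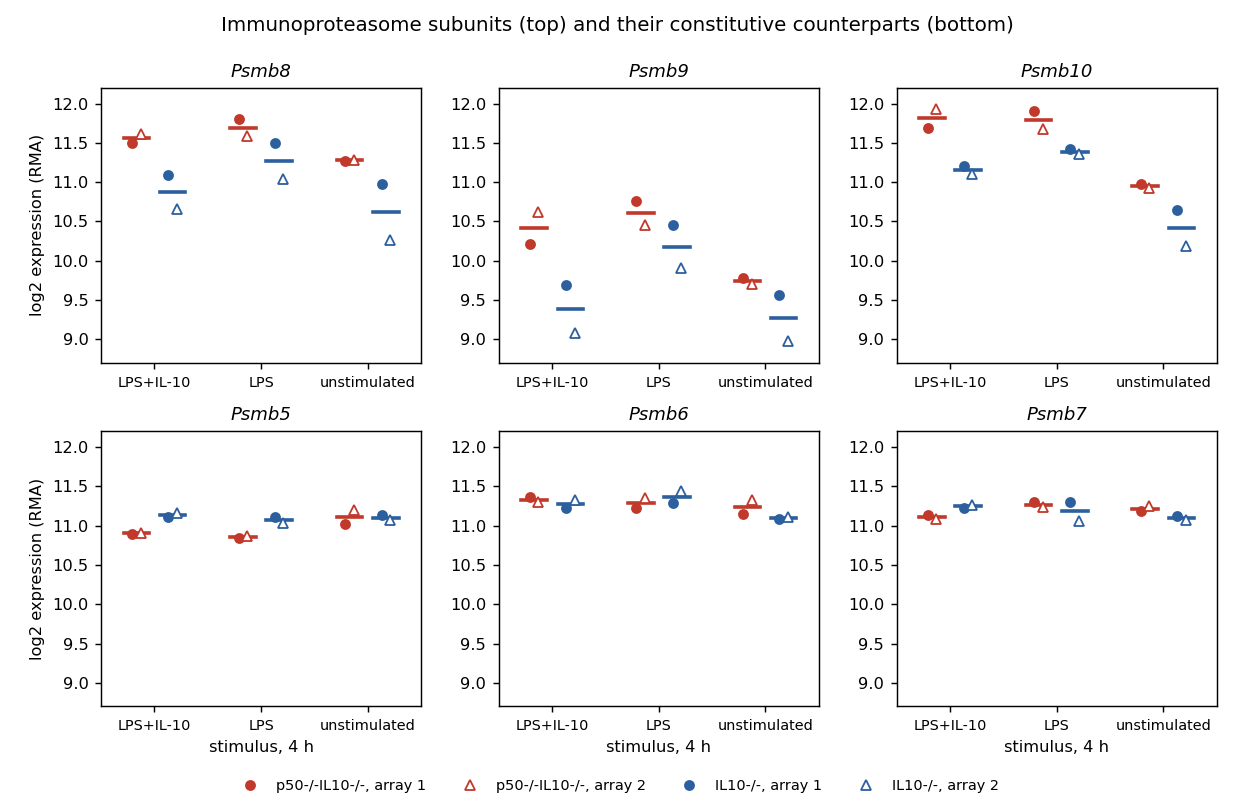
Log2 expression (RMA) of Psmb8, Psmb9 and Psmb10 (top) and of the constitutive subunits Psmb5, Psmb6 and Psmb7 (bottom) on each array, on 1 common axis, with p50-/-IL10-/- in red left of IL10-/- in blue. Circles are arrays numbered 1, triangles arrays numbered 2 and bars the means of 2 arrays. The immune subunits span 1.54 to 1.78 log2 and the constitutive ones 0.25 to 0.36 log2.

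The rest of the proteasome moved in both directions. With LPS, of 14 constitutive core subunits 2 were called higher and 3 lower in p50-/-IL10-/- cells and 3 higher and 0 lower in IL10-/- cells. Of all genes, 10.3% were called higher and 22.1% lower in p50-/-IL10-/- cells, and 7.76% higher and 17.1% lower in IL10-/- cells. Of 17 subunits of the 19S cap, which feeds tagged proteins into the core, 1 was higher and 3 were lower in p50-/-IL10-/- cells and 1 was higher, Psmd7, in IL10-/- cells. With LPS+IL-10 1 of 14 core and 4 of 17 cap subunits were called lower in p50-/-IL10-/- than in IL10-/- cells and 0 higher. Of all genes, 10.4% were called lower there and 7.58% higher. The median difference there was -0.12 log2 for the core and -0.19 for the cap, beside 0.68 for the 9 genes and 0.04 for all genes. Of 8 other activators and assembly factors 0 were called higher with LPS in either genotype, and 3 lower in p50-/-IL10-/- and 2 lower in IL10-/- cells. Psme3, the third PA28 gene, whose product works in the nucleus, differed with LPS by 0.22 ± 0.15 in p50-/-IL10-/- cells and 0.38 ± 0.15 in IL10-/- cells. Pomp, which helps assemble the core, differed by -0.16 ± 0.09 and -0.04 ± 0.09, and neither gene was called with LPS.

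On the class I side, 9 of 18 listed heavy chain and class I-like genes had a probe set of their own, of which 1 was called higher with LPS in p50-/-IL10-/- cells (10.3% of all genes) and 0 in IL10-/- cells (7.76%) by limma, with 0 called lower. The classical heavy chains H2-K1 and H2-D1 lay at 13.20 to 13.58 and 13.31 to 13.55 log2 and were called in no comparison. Their LPS differences were 0.06 ± 0.10 and 0.07 ± 0.08 in p50-/-IL10-/- cells and 0.05 ± 0.10 and -0.00 ± 0.08 in IL10-/- cells. With B2m they sit among the brightest probe sets, where the highest value of any array was 14.17 to 14.22 log2. H2-M3, which presents formylated peptides, was higher in p50-/-IL10-/- than in IL10-/- cells by 0.81 ± 0.18 with LPS+IL-10 (limma adjusted p 0.0129) and by 0.76 ± 0.18 with LPS (adjusted p 0.0223), each call ending in 3 of 4 fits without 1 array. H2-T3 was higher with LPS by 0.34 ± 0.09 in p50-/-IL10-/- cells (adjusted p 0.0158), also ending in 3 of 4 such fits. H2-T24 differed with LPS by 1.40 ± 0.66 and 1.44 ± 0.66 in p50-/-IL10-/- and IL10-/- cells, neither called, and Cd1d1, Mr1, H2-Q2 and H2-Q10 were the others measured. Between the genotypes 2 of the 9 were called higher in p50-/-IL10-/- cells with LPS+IL-10 (7.58% of all genes). With LPS 1 was (5.66%) and unstimulated 1 (1.26%), and 0 were called lower. H2-T3 read 7.64 and 7.65 against 7.35 and 7.22 log2 with LPS+IL-10. Mr1 read 7.51 and 7.50 against 7.14 and 7.13 log2 unstimulated.

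Of 13 further genes of the loading complex and of peptide processing, 2 rose with LPS in each genotype (10.3% of all genes in p50-/-IL10-/- and 7.76% in IL10-/- cells), and 1, Sec61b of the membrane channel, fell in p50-/-IL10-/- cells (-0.40 ± 0.11, limma adjusted p 0.0142). Tapbpl (TAPBPR), a tapasin-related peptide editor, rose by 1.09 ± 0.17 log2 in p50-/-IL10-/- cells (limma adjusted p 0.000556) and by 0.70 ± 0.17 in IL10-/- cells (adjusted p 0.0112), the second call ending at 0.43 (adjusted p 0.233) without the 3 arrays numbered 2. Ube2l6, a conjugating enzyme of the ubiquitin-like ISG15 named here, like Sec61b and Psmd7, after its values were seen, rose by 1.12 ± 0.22 in both genotypes. The chaperones Calr, Canx and Pdia3, which fold class I molecules, differed with LPS by -0.22 to 0.17 log2, none called.

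The upstream genes gave a partly similar picture. Of 22 regulators of the interferon and NF-kB pathways, 12 were called higher and 1 lower with LPS in each genotype, where 10.3% and 7.76% of all genes were called higher and 22.1% and 17.1% lower in p50-/-IL10-/- and IL10-/- cells. With added IL-10 3 of the 22 were called higher (3.70% of all genes) and 4 lower (2.87%) in p50-/-IL10-/- cells, and 4 higher (3.35%) and 5 lower (2.82%) in IL10-/- cells. Irf1, a factor that binds interferon response elements, rose with LPS by 2.51 ± 0.07 log2 in p50-/-IL10-/- cells and by 2.19 ± 0.07 in IL10-/- cells (limma adjusted p 1.43e-08 and 3.8e-08). IL-10 changed it by -0.27 ± 0.07 in p50-/-IL10-/- cells, not called (adjusted p 0.0578), while in IL10-/- cells it fell by 1.32 ± 0.07 (adjusted p 8.12e-06). With LPS+IL-10 it was higher in p50-/-IL10-/- than in IL10-/- cells by 1.49 ± 0.07 (adjusted p 1.73e-06).

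Stat2, a subunit of the factor that type I interferon activates, rose with LPS by 2.46 ± 0.41 and 2.37 ± 0.41 log2 in p50-/-IL10-/- and IL10-/- cells (limma adjusted p 0.000905 and 0.00165). IL-10 changed it by -0.11 ± 0.41 in p50-/-IL10-/- cells and -1.50 ± 0.41 in IL10-/- cells, the second with an adjusted p of 0.0607. Its genotype difference with LPS+IL-10 was 2.16 ± 0.41 (adjusted p 0.00563), called in 2 of 4 fits without 1 array. Ifnb1, interferon beta itself, rose with LPS by 2.06 ± 0.18 in p50-/-IL10-/- cells (adjusted p 1.32e-05) and by 0.59 ± 0.18 in IL10-/- cells (adjusted p 0.0392, ended in 3 of 4 such fits). Added IL-10 lowered it in both, by 1.40 ± 0.18 (adjusted p 0.00167) and by 0.80 ± 0.18 (adjusted p 0.0268).

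The other named regulators varied. Socs1, a feedback inhibitor of JAK kinases, rose with LPS by 3.97 ± 0.38 log2 in p50-/-IL10-/- cells and by 1.67 ± 0.38 in IL10-/- cells (limma adjusted p 1.87e-05 and 0.00763). It fell with added IL-10 in p50-/-IL10-/- cells, by 1.62 ± 0.38 (adjusted p 0.0321, ended in 4 of 4 fits without 1 array), and differed by -1.34 ± 0.38 (adjusted p 0.0682) in IL10-/- cells. Rel, an NF-kB subunit named after its values were seen, fell with IL-10 by 1.26 ± 0.17 and 1.19 ± 0.17 (adjusted p 0.00167 and 0.00168). Irf2 rose by 0.94 ± 0.13 in p50-/-IL10-/- cells (adjusted p 0.000282) and differed by 0.34 ± 0.13 in IL10-/- cells. Irf9, the DNA-binding partner of the STATs, differed by 0.59 ± 0.21 (adjusted p 0.0539) and rose by 0.94 ± 0.21 (adjusted p 0.00762) in p50-/-IL10-/- and IL10-/- cells. Irf8, a myeloid lineage factor, differed by -0.26 ± 0.17 in p50-/-IL10-/- cells and fell by 1.00 ± 0.17 in IL10-/- cells (adjusted p 0.00121). Nlrc5 was not analysed here.

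The genes of the group varied together across the arrays to different degrees. Against the mean of the 9 centred profiles, which includes the gene itself, Pearson's r over the 12 arrays was 0.98 for Psmb9, 0.97 for Tap1 and Psmb8, 0.94 for Tap2 and Psmb10, 0.92 for Psme1, 0.89 for Tapbp, 0.79 for Erap1 and 0.70 for B2m. These values describe 12 arrays in 6 groups and carry no test. The genes outside the group with the highest r to that mean were Slfn1 (0.99), Isg20 (0.99), Slfn4 (0.99), Ifi209 (0.98) and Zbp1 (0.98). Slfn1 read 10.41 and 11.10 log2 with LPS+IL-10 in p50-/-IL10-/- cells against 8.36 and 5.92 in IL10-/- cells, and at all 3 stimuli it too read lower on the IL10-/- array numbered 2 than on the array numbered 1.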

How the data were processed

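The deposited values are log2 expression from Affymetrix arrays, made by the authors with RMA, and RMA and limma are named in the submitters' processing notes without versions. RMA places all arrays on 1 common distribution, so a shift of the whole transcriptome is not measured. Array medians were 6.92 to 6.96 log2. With 2 arrays per group the number of arrays limits the precision.

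Of 22690 probe sets 64 controls were left out, and 20380 had 1 gene symbol, 691 several and 1555 none. The probe set with the highest mean stood for each gene, also for the 4956 genes with more than 1. No symbol needed updating (0 changed), and 0 per-sample columns went unused. limma 3.58.1 in R 4.3.3 was fitted to all 6 groups (12 arrays, 12393 genes, 6 residual and 4.47 prior degrees of freedom) without a replicate block, with 11 contrasts, two-sided p and Benjamini-Hochberg adjustment per contrast. An exact permutation of 2 against 2 arrays cannot go below 0.333, so none is given. The script was tested on simulated data. Intervals are 95%. The alternatives were only the groups compared, every probe set separately, the mean of probe sets, arrays centred on their medians, genes in the lowest quartile of levels left out, a spread trend, replicate blocks, each array left out, and the IL10-/- arrays numbered 2 left out, the last chosen after seeing the data.

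The 10 genes and all gene lists were chosen with earlier results of these data known. Named genes are these, the class I heavy chains, constitutive subunits, chaperones and regulators of the lists, and the 5 genes with the most similar profile. Deleted transcripts were not analysed here.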

Additional observations from a re-analysis of the deposited data

Results flagged for a closer look

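The response of Ifnb1 to LPS differed between the genotypes in the test of the difference itself. It was larger in p50-/-IL10-/- than in IL10-/- cells by 1.48 ± 0.26 log2 (limma adjusted p 0.026), with responses of 2.06 and 0.59. The call ended in 6 of 8 fits that left out 1 array, with the highest adjusted p, 0.117, without unstimulated array 1 of p50-/-IL10-/- cells, and it was 1.23 (adjusted p 0.124) without the 3 IL10-/- arrays numbered 2.

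The effect of added IL-10 on Irf1 also differed, by 1.06 ± 0.10 log2 (limma adjusted p 0.00295), with effects of -0.27 in p50-/-IL10-/- and -1.32 in IL10-/- cells. It was called in 8 of 8 fits without 1 array, with adjusted p up to 0.03.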

How the results depend on the processing

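Of 1332 values of the 9 genes under the alternatives, 1246 kept their side of the threshold, of which 70, none called, turned their sign, 41 passed it newly, 45 no longer passed it, and no called value turned its sign. With only the groups compared, the genes called numbered 1 lower for IL-10 in IL10-/- cells, 5 and 1 higher for LPS+IL-10 in p50-/-IL10-/- and IL10-/- cells, and 0 for the genotype difference with LPS and 0 unstimulated. Over all genes that fit called 144 lower for IL-10 in IL10-/- cells, against 350, and 1251 lower for LPS there, against 2116. It called 303 higher for IL-10 in p50-/-IL10-/- cells, against 458, and 313 higher for the genotype difference with LPS, against 702. Testing every probe set separately called 2137 and 1608 higher for LPS in p50-/-IL10-/- and IL10-/- cells, against 1273 and 962, 1527 higher for LPS+IL-10 in IL10-/- cells, against 860, and for the genotype difference 1126 with LPS, against 702, and 244 unstimulated, against 156. For IL-10 in IL10-/- cells, testing every probe set separately called 1, Tap1, and the mean of probe sets called 1, Tap2. Without the 3 IL10-/- arrays numbered 2 the counts were 1 for IL-10 and 0 for LPS+IL-10 in IL10-/- cells, and 0 for the genotype difference with LPS and 0 unstimulated, beside all-gene counts of 565 higher for LPS+IL-10 in IL10-/- cells, against 860, and, for the genotype difference, 735 lower with LPS+IL-10, against 1291, and 102 higher unstimulated, against 156. With 1 array left out at a time, the counts ran from 3 to 7 for LPS, 0 to 1 for IL-10 and 1 to 2 for LPS+IL-10 in IL10-/- cells, and for the genotype difference from 2 to 7 with LPS+IL-10, 0 to 2 with LPS and 0 to 5 unstimulated. Same-numbered arrays did not deviate together in all 15 pairs of groups (correlations -0.492 to 0.595, 10 over 0.1), so the numbers were not taken as pairs between genotypes or in p50-/-IL10-/- cells. A replicate block over all arrays gave 2 for the genotype difference with LPS. A replicate block within genotypes takes the spread between numbers out of the error also for genotype differences, although the genotypes share no block. It gave 7 for LPS in IL10-/- cells, 6 for the genotype difference with LPS and 6 unstimulated. It also gave 1 for the genotype difference of the IL-10 effect, Tap1 (limma adjusted p 0.019). Over all genes it called 1057 higher for LPS in IL10-/- cells, against 962. For the genotype difference it called 876 higher with LPS, against 702, and 292 unstimulated, against 156. For the genotype difference of the IL-10 effect it called 53 higher, against 12. Centring arrays on their medians moved LPS differences in p50-/-IL10-/- cells by 0.128 log2. It changed the all-gene split of higher and lower calls from 1273 and 2739 to 2502 and 1829 for LPS in p50-/-IL10-/- cells and from 962 and 2116 to 1512 and 1492 in IL10-/- cells. For IL-10 in p50-/-IL10-/- cells the split was 458 and 356, centred 277 and 520, and for LPS+IL-10 it was 2070 and 2633, centred 3280 and 2215, in p50-/-IL10-/- cells and 860 and 1551, centred 1247 and 1159, in IL10-/- cells. For the genotype difference of the IL-10 effect 70.6% of calls were higher, centred 60.0%. The 2 arrays per group limit every count here.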

Other observations

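The probe set that names both Psme2 and Psme2b read 12.27 and 12.41 log2 with LPS+IL-10, 12.53 and 12.44 with LPS, and 11.77 and 11.78 unstimulated in p50-/-IL10-/- cells. In IL10-/- cells it read 12.02 and 11.77, 12.38 and 12.25, and 11.65 and 11.10 in the same order of stimuli. The arrays of each genotype with LPS lay above its unstimulated arrays. How much of this signal comes from each gene was not tested.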
